A study of Callithrix jacchus with 4 samples.

Results

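The 42 genes described here encode subunits of the receptors for glutamate and GABA, and they were followed in the nuclei of marmoset primary visual cortex (V1) after ischemic stroke. They were taken by symbol: every AMPA (GRIA), kainate (GRIK), NMDA (GRIN), delta (GRID), metabotropic glutamate (GRM), GABA-A (GABR) and GABA-B (GABBR) subunit gene that was listed in both deposited tables, which have 16383 genes in common. The symbols gave 4 AMPA, 5 kainate, 6 NMDA, 2 delta, 7 metabotropic, 17 GABA-A genes and 1 GABA-B gene. A further 4 entries that fit the symbols were listed for the injured animals only and could not be compared.

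The injured cohort was 3 adult marmosets, each with 1 library of single nuclei, that had received endothelin-1 (ET-1), a vasoconstrictor, in V1 and were sampled 7 days later with ischemic core and penumbra included. The control was 1 library of pooled V1 from 3 uninjured adult marmosets. Because the control was a single library, the spread between animals came from the injured libraries only and was assumed for the control. The cohorts also differed in the isolation of nuclei (pulverizing and sucrose ultracentrifugation for injured, low-speed centrifugation and sorting on a DNA dye for control), the sequencing facility, the sequencer and the removal of doublets, so that injury cannot be told apart from these.

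Glutamate opens the AMPA, kainate and NMDA channels, which carry fast excitation, and GABA opens the GABA-A chloride channel, the main fast inhibitory receptor of the cortex. Each channel is assembled from several subunits, and the choice of subunits sets its kinetics, its ion selectivity and its drug sensitivity, and AMPA receptors that contain the GRIA2 product pass little calcium. The metabotropic glutamate receptors and the GABA-B receptor signal through G proteins, and glia carry a subset of all of these receptors.

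The libraries held 7500, 12527 and 9510 nuclei in injured replicates 1, 2 and 3 and 8610 in the control, and between 22832703 and 48722394 unique molecular identifiers (UMIs, counts of captured RNA molecules). Cell types were the deposited annotation: excitatory (ExN) and inhibitory (InN) neurons, astrocytes (Astro), oligodendrocyte precursors (OPC), oligodendrocytes (Oligo), microglia (Micro) and endothelial cells (Endo). Of 32 markers listed in both tables, 31 were highest in their own type in each cohort; the exceptions were GPR34 in injured nuclei (highest in OPC) and FLT1 in control nuclei (highest in Micro). Median UMIs per ExN nucleus were 5378 to 7077 in injured libraries and 2678 in the control. Libraries shared 15 to 27 barcodes per pair. GRIN2A is a member and also 1 of the study's 6 ExN markers. CD74, a marker of microglia, was called higher in injured ExN (82.0 to 161 CPM, UMIs in 1000000, against 3.34 CPM), InN, Astro and Oligo nuclei. The 4 microglial markers summed to 129 to 220 CPM in injured and 61.5 CPM in control ExN and to 130 to 209 and 62.9 CPM in InN. In both neuron types 1 of the 4, CD74, was higher and 2, GPR34 and P2RY12, were lower in all 3 injured libraries, and their part in the neuronal results was not tested.

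Receptor transcripts were found in every cell type. Levels are CPM, the UMIs of a gene in 1000000 UMIs of that cell type and library, and they are compared here across cell types for the same genes. The 42 genes together took 11123, 11696 and 11185 CPM of injured ExN and 8698 CPM of control ExN, and 15746.5, 14989.5 and 14769.6 CPM of injured InN against 11440.0 CPM of control InN. In OPC the sum was 7089, 7140 and 7281 CPM in injured libraries and 8512 CPM in the control. In Astro it was 4357, 4508 and 5249 CPM against 5616 CPM, and in Endo 3355 to 4219 CPM in injured libraries and 1401 CPM in the control. In Oligo it ran from 2993 to 3663 CPM over the 4 libraries and in Micro from 1206 to 2089 CPM.

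For 23 of the 42 genes the same cell type was highest in every library. These were InN for 12 genes, ExN for 6, Astro for 3, OPC for 1 and Oligo for 1. The InN genes included GRIA1 and GRIA3, the kainate subunits GRIK2 and GRIK3, the NMDA subunits GRIN2B, GRIN2D and GRIN3A, and the receptor GRM5, which couples to phospholipase C. The ExN genes included GABRA4, GRIN2A and GRM7. The 3 Astro genes were GABRA2, GABRB1 and GABRG1, which encode an alpha, a beta and a gamma subunit. GABRB1 stood at 1564.5, 1528 and 2195 CPM in injured Astro and 1809 CPM in control Astro, with 396 to 691 CPM over the 4 libraries in ExN. Cell types were defined by clustering the same counts, and these orders are a description.

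**Figure D1:**
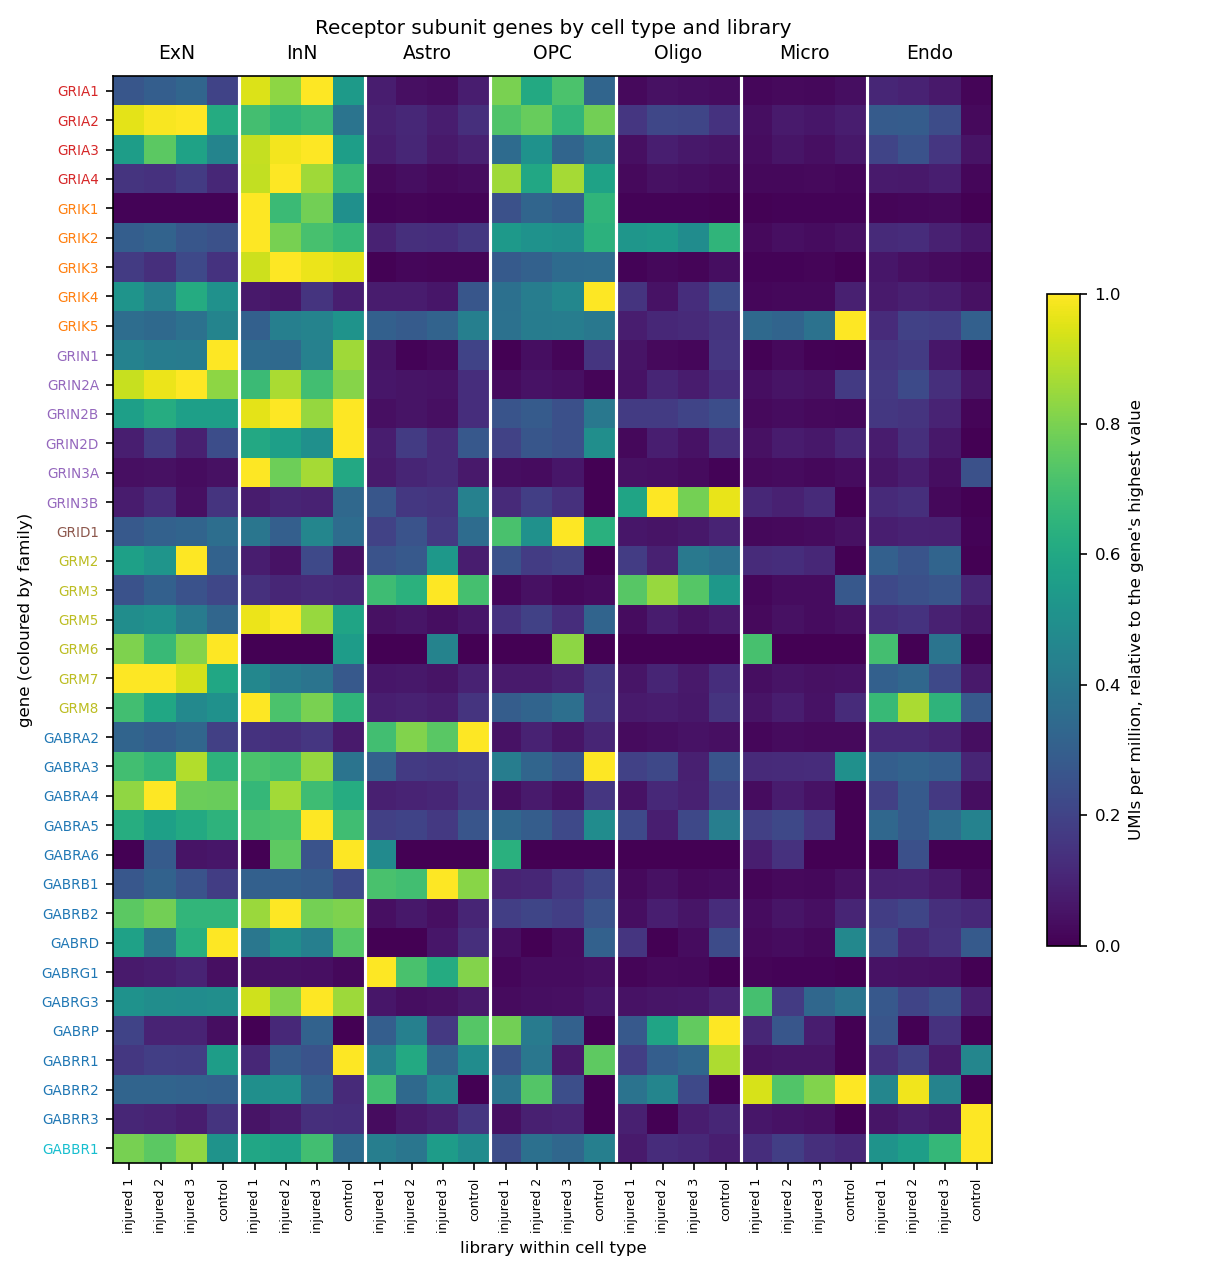
Heat map of 37 of the receptor subunit genes (rows, coloured by family) in 7 cell types and 4 libraries (columns); colour gives CPM relative to the highest value of the same gene, so colours are comparable along a row only. GRIA1 and GRIA3 are brightest in InN, GABRA4 and GRM7 in ExN, and GABRA2, GABRB1 and GABRG1 in Astro.

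In ExN, 6 receptor genes rose 7 days after injury and none was called lower. Among them were the GABA-A gene GABRA2, the AMPA gene GRIA2, and the G protein-coupled receptor genes GRM7 and GABBR1. For these 4 genes the mean CPM of the injured libraries was 1.55 to 1.67 times that of the control. CPM is scaled by the UMI total alone, while the fitted log2 fold changes below also use TMM scaling factors. Ratios of CPM and positions above or below the control are thus on another scale than the fitted values. Genes were called where the adjusted p over all genes tested was below 0.01 (edgeR's quasi-likelihood test, Benjamini-Hochberg), the natural log of the fold change lay beyond 0.25 in either direction, and 10% or more of the nuclei of one cohort held a UMI of the gene. Of the 42 genes 40 were tested and 27 met the 10% condition, 2 of them in injured nuclei only. The share called higher was 22.2% of these 27, with 5.27% of all genes that met the condition called higher and 2.53% called lower.

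GABRA2, an alpha subunit of the GABA-A receptor, stood at 217, 203 and 222 CPM in injured ExN and 128 CPM in control ExN, a log2 fold change of 0.85 ± 0.12 (SE; adjusted p = 0.00509, edgeR). GABBR1, the subunit of the GABA-B receptor that binds GABA, had 168, 158 and 176 CPM against 108 CPM (log2 fold change 0.75 ± 0.12, adjusted p = 0.00817, edgeR). The 3 injured libraries lay close together for both genes, and none overlapped the control. The calls here and below were made on these same libraries, so that the lack of overlap adds nothing to them.

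GRIA2 encodes the AMPA subunit that limits calcium entry. Its levels were 1756, 1812 and 1827 CPM in injured ExN and 1123 CPM in control ExN, a log2 fold change of 0.79 ± 0.13 (adjusted p = 0.00963, edgeR). GRM7, a presynaptic metabotropic receptor that lowers transmitter release, had 948, 949.6 and 889.6 CPM against 564.3 CPM (log2 fold change 0.83 ± 0.13, adjusted p = 0.00681, edgeR). Neither gene's groups overlapped.

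All 4 AMPA genes had log2 fold changes of 0.59 to 0.79, and GRIA1, GRIA3 and GRIA4 did not pass the test. Of the GABA-A genes 9 met the 10% condition. GABRG3 had the lowest log2 fold change of these, 0.12 ± 0.11, at 542, 522 and 519 CPM against 526 CPM. The 5 metabotropic genes that met it ranged from 0.33 to 0.83. The 2 NMDA genes that met it, GRIN2A and GRIN2B, had values of 0.33 ± 0.13 and 0.16 ± 0.13 and did not pass. GRIN2B, at 437, 479 and 439 CPM in injured ExN and 439 CPM in the control, overlapped between groups. The 4 kainate genes ranged from -0.23 to 0.40.

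Only GRIK5 and GRID1 of the 27 genes had negative values in ExN, and neither passed the test. GRIK5, a high-affinity kainate subunit, stood at 57.6, 54.6 and 60.2 CPM against 72.8 CPM (log2 fold change -0.23 ± 0.12, adjusted p = 0.204, edgeR). Its value was -0.05 ± 0.16 with each nucleus thinned to 1000 UMIs and -0.06 ± 0.19 in nuclei of at most 2500 genes. GRID1, an orphan receptor that binds synaptic organizers of the cerebellin family, stood at 153, 171 and 177 CPM against 199 CPM (log2 fold change -0.13 ± 0.13, adjusted p = 0.485, edgeR). Both lay below the control in every injured library.

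GRIN1, the subunit that every NMDA receptor needs, missed the call by the 10% condition alone; it and GABRR1 are singled out here after their values were seen. GRIN1 had a UMI in 7.45% to 9.40% of injured and 9.89% of control ExN nuclei, and in 0.147% to 0.563% of injured and 0.535% of control Oligo nuclei, whose median depths were 1950 to 3064 and 900 UMIs. Its level in ExN was 15.2, 14.4 and 14.3 CPM in injured libraries and 34.3 CPM in the control, a log2 fold change of -1.12 ± 0.15 (adjusted p = 0.00429, edgeR). With each nucleus thinned to 1000 UMIs, 1.94%, 1.24% and 1.23% of injured ExN nuclei had a GRIN1 UMI and 3.34% of control nuclei (1855, 4530, 2997 and 5152 nuclei were deep enough to be kept). GABRR1, a rho subunit, had 3.46, 4.002 and 3.86 CPM against 11.9 CPM in ExN (log2 fold change -1.53 ± 0.22, adjusted p = 0.00584, edgeR). It was near the floor, with a UMI in 2.20% of injured and 3.59% of control ExN nuclei. The GABRR1 value was not particular to ExN: it was -1.98 ± 0.40 in InN, -1.60 ± 0.47 in Oligo and -1.56 ± 1.36 in OPC. In Astro it was 0.01 ± 0.58. For GRIN1 and GABRR1, every injured library of ExN lay below the control.

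Over the 40 genes tested in ExN the median log2 fold change was 0.33, and over all 15122 genes tested it was 0.00. All 3 injured libraries lay above the control for 22 of the 40 genes (55.0%) and below it for 10 (25.0%), with 31.3% and 47.5% of all genes tested. An unadjusted p below 0.05 was found for 20 of the 40 genes and for 40.2% of all genes tested. With scaling by library size alone, which moved the median of all genes by -0.11 in ExN and -0.10 in InN, 5 receptor genes were called in each neuron type, GABBR1 being lost, and the split of all calls into higher and lower moved from 393 and 189 to 263 and 264 in ExN, from 285 and 158 to 248 and 273 in InN and from 140 and 47 to 138 and 101 in Astro.

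The ExN calls were lost without injured replicate 1: 0 of the 6 passed, with log2 fold changes of 0.75 to 0.85 for the 4 described here (all-gene calls fell from 582 to 77); without replicates 2 and 3 there were 7 and 8 calls (919 and 920 over all genes). With nuclei thinned to 1000 UMIs 2 genes were called, GRM7 among them, and with nuclei of at most 2500 genes 0 were, while the calls over all genes fell to 100 and 243. The log2 fold changes of the 4 genes were 0.68 to 0.75 with thinning and 0.56 to 0.80 in nuclei of at most 2500 genes.

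**Figure D2:**
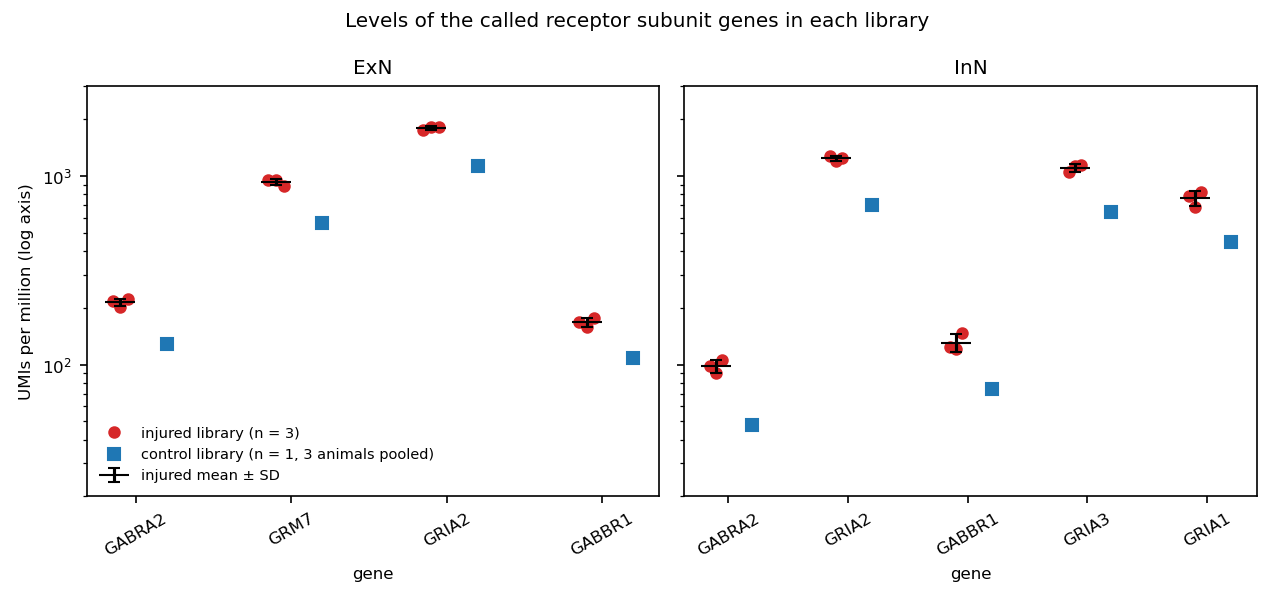
CPM (log axis) of the receptor genes called in ExN (left) and InN (right): red circles are the 3 injured libraries, black bars their mean ± SD, blue squares the single control library of 3 pooled animals. The panels hold 4 and 5 genes, and every injured library lies above the control for each, for example GRIA2 in ExN at 1756 to 1827 against 1123.

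Markers of cortical layers were measured beside these results. The 10 layer markers listed in both tables summed to 1801 to 2021 CPM in injured and 1570 CPM in control ExN, and none of the 9 tested was called. The ExN were then split by a UMI of CUX2, a marker of upper layers, or of FOXP2, a marker of deep layers, a split made after the data were seen. Among nuclei with CUX2 and without FOXP2 (906, 2570 and 1517 injured and 2542 control nuclei), 8 receptor genes were called, beside 503 of all 14394 genes tested (347 higher and 156 lower): the same 6 and GRIA1 rose, and GRIN1 fell. The log2 fold changes of the 4 genes described above were 0.77 to 0.90 there. Among nuclei with FOXP2 and without CUX2 (284, 564 and 422 injured and 590 control nuclei) 0 were called, beside 184 of all 12138 genes tested, and the log2 fold changes of these 4 were 0.45 to 1.06. The 4 genes had positive values in both sets of ExN. The 11 markers of InN subclasses summed to 252, 258 and 338 CPM in injured and 125 CPM in control ExN, 4 of them higher and 2 lower in all 3 injured libraries, with CCK (122.6, 148 and 183 against 28.4 CPM) called higher, and their part in the ExN values was not tested. CCK met the 10% condition in injured ExN only.

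In InN, 6 receptor genes rose and none was called lower. Among them were GABRA2, GRIA2, GABBR1, GRIA3 and GRIA1, so that 3 of the 4 AMPA genes were among them. Of the 42 genes 38 were tested and 30 met the 10% condition, 2 of them in injured nuclei only. The share called higher was 20.0% of these 30, beside 3.99% of all genes that met the condition; 2.21% of all such genes were called lower.

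GRIA2 stood at 1278, 1195 and 1244 CPM in injured InN and 699.9 CPM in control InN, a log2 fold change of 0.93 ± 0.14 (SE; adjusted p = 0.00367, edgeR). GRIA3 had 1048, 1127 and 1149 CPM against 646 CPM (log2 fold change 0.88 ± 0.15, adjusted p = 0.00519, edgeR). GRIA1, whose product is moved in and out of synapses with activity, had 780.5, 684 and 823 CPM against 448 CPM (log2 fold change 0.87 ± 0.16, adjusted p = 0.00674, edgeR). The injured means of these 3 AMPA genes were 1.70 to 1.77 times the control, with no overlap. GRIA4, the remaining AMPA gene, had a log2 fold change of 0.56 ± 0.16 and did not pass (adjusted p = 0.0375, edgeR).

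GABRA2 stood at 97.7, 89.9 and 106 CPM in injured InN and 47.7 CPM in control InN, a log2 fold change of 1.14 ± 0.18 (adjusted p = 0.00385, edgeR). GABBR1 had 124, 121 and 147 CPM against 74.2 CPM (log2 fold change 0.92 ± 0.18, adjusted p = 0.00925, edgeR). The injured means of GABBR1 and GABRA2 were 1.76 and 2.05 times the control, with no overlap. GABRA3 had a fitted value as large, with 34.4, 33.5 and 40.6 CPM against 18.5 CPM, and did not pass (log2 fold change 1.07 ± 0.24, adjusted p = 0.0168, edgeR). Its value was lower with thinning (0.73 ± 0.38) and in nuclei of at most 2500 genes (0.61 ± 0.38).

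The 4 NMDA genes that met the 10% condition in InN had values on both sides of 0, and none passed. GRIN2D, a subunit of slow NMDA receptors found in many interneurons, stood at 45.6, 42.7 and 37.9 CPM against 75.5 CPM and did not pass (log2 fold change -0.75 ± 0.18, adjusted p = 0.0209, edgeR). GRIN3A, which lowers calcium flow through the channel, stood at 238, 186 and 206 CPM against 144 CPM (log2 fold change 0.64 ± 0.17, adjusted p = 0.0289, edgeR) and did not pass either. For GRIN2A the injured libraries lay on both sides of the control, at 522, 667 and 534 CPM against 626 CPM (log2 fold change -0.02 ± 0.17). GRIN2B had a log2 fold change of 0.01 ± 0.15. GRIK5 was the third gene with a negative value among the 30, at 49.2, 69.6 and 72.0 CPM against 82.7 CPM (log2 fold change -0.26 ± 0.22, adjusted p = 0.445, edgeR). Its value was -0.02 ± 0.28 with thinning and -0.24 ± 0.27 in nuclei of at most 2500 genes. GRIN1 lay outside the 10% condition here too, at 12.01, 11.7 and 15.1 CPM against 29.5 CPM (log2 fold change -1.08 ± 0.27, adjusted p = 0.0239, edgeR).

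Over the 38 genes tested in InN the median log2 fold change was 0.49, beside 0.00 over all 12984 genes tested. All 3 injured libraries lay above the control for 24 of the 38 (63.2%) and below it for 6 (15.8%), with 30.8% and 44.9% of all genes tested. Leaving out injured replicate 1 left 1 gene called, while without replicate 2 there were 18 and without replicate 3 there were 4, and the calls over all genes went from 443 to 245, 1541 and 304. Without replicate 1 the 5 genes named above had log2 fold changes of 0.87 to 1.16. With thinning 4 genes were called, GRIA2 and GRIA3 of those above and GRM5 among them, beside 142 of all 10045 genes tested.

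**Figure D3:**
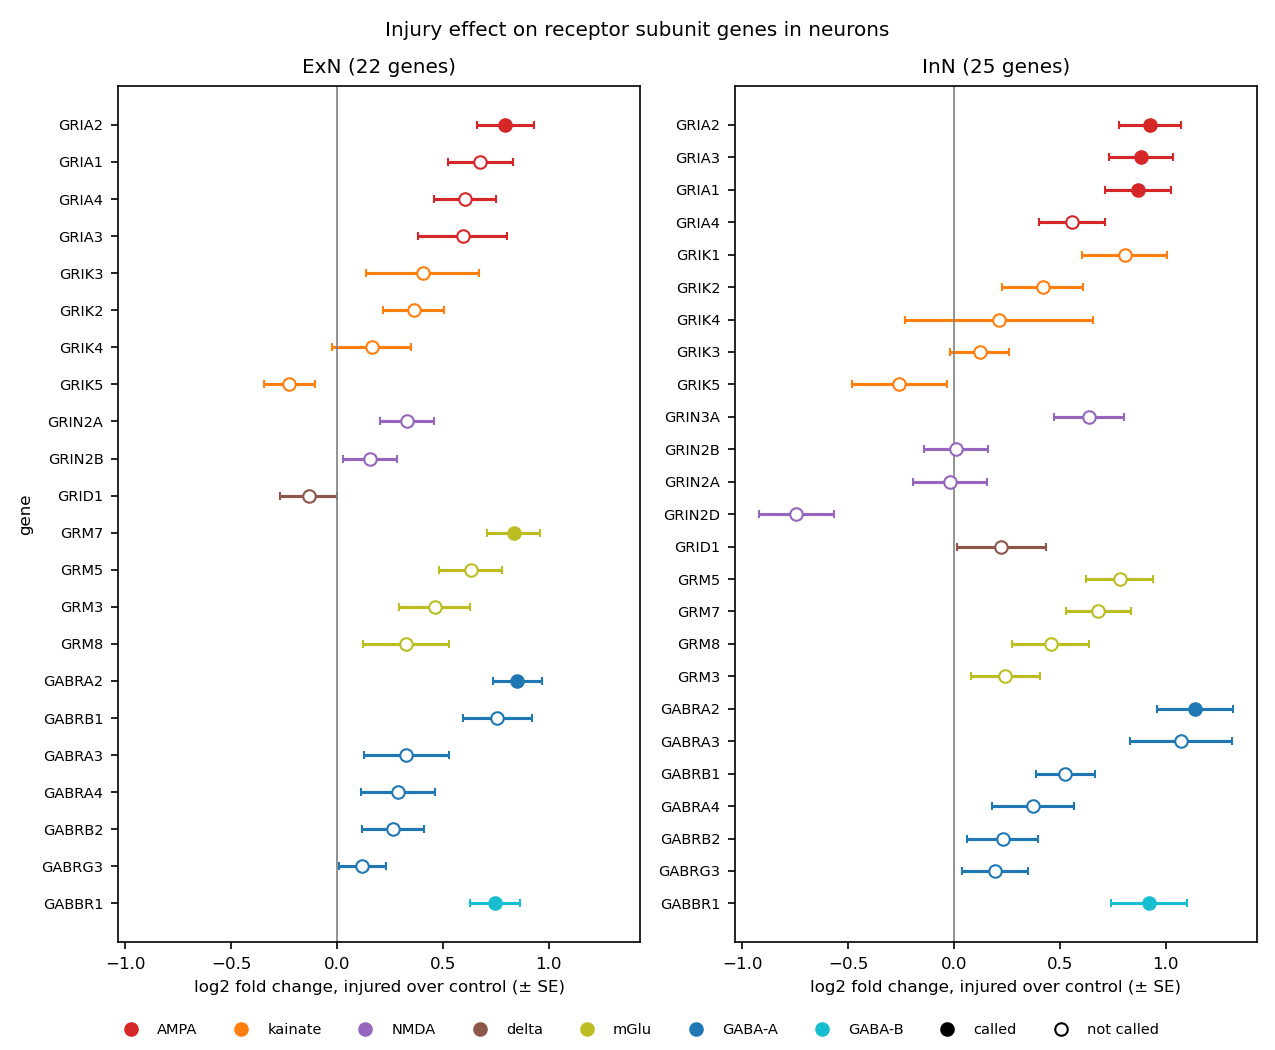
Log2 fold changes (injured over control, ± SE from the edgeR fit) of the receptor genes with a UMI in at least 10% of nuclei of either cohort, in ExN (22 genes, left) and InN (25 genes, right), grouped and coloured by family; filled points were called. The plotted AMPA, metabotropic and GABA genes lie right of 0, and GRIN2A and GRIN2B of InN lie at -0.02 and 0.01.

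Markers of InN subclasses moved with the cohort. The 11 subclass markers summed to 1134 to 1360 CPM in injured and 1057 CPM in control InN, with SST (50.6 to 77.5 against 12.3 CPM) and CCK (40.03 to 65.4 against 11.7 CPM) called higher. Of the 11 markers 7 were higher and 2 lower in all 3 injured libraries. The study's 5 InN markers, SST among them, summed to 1607, 1344 and 1865 CPM in injured and 1149 CPM in control InN. Of these 5, 4 were higher and 1 lower in all 3 injured libraries, and their part in the receptor values was not tested. InN were split by a UMI of LHX6 or ADARB2, markers of interneurons from the medial and caudal ganglionic eminences, again after the data were seen. With LHX6 and without ADARB2 (114, 333 and 170 injured and 219 control nuclei), GRIA2 and GRIA3 were called, beside 180 of all 10250 genes tested, and with ADARB2 and without LHX6 (131, 294 and 207 injured and 280 control nuclei) 8 genes were, among them the same 6, beside 336 of all 10406 genes tested. The 5 genes named above as called in all InN had log2 fold changes of 0.87 to 1.13 in the first set and 0.66 to 1.15 in the second. GABRA3 lay at 1.43 in the LHX6 set and 0.28 in the ADARB2 set, and this difference was not tested.

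The injury effect in InN was compared with that in ExN by an interaction term with library as a block. None of 39 receptor genes was called (edgeR), and only 0.0135% of all 14840 genes were. An unadjusted p below 0.05 was found for 5 of the 39 genes and for 6.14% of all genes. GABRA3 had the smallest p, with a log2 fold change higher in InN by 0.76 ± 0.21 (adjusted p = 0.462, edgeR), followed by GRIK1 with 0.84 ± 0.26 (adjusted p = 0.542, edgeR). GRIA2 differed by 0.14 ± 0.12 and GABBR1 by 0.18 ± 0.15. When injured replicate 2 was left out, 2 receptor genes were called, and the calls over all genes went from 2 to 173. ExN and InN come from the same 4 libraries and share the control.

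Several GABA-A genes are neighbors in the genome, and their values are set side by side here; the differences were not tested. In the RefSeq gene order of a later marmoset assembly, 13 of the members fell into 4 such groups, allowing 1 other coding gene between neighbors. In the group of GABRB1, GABRA4, GABRA2 and GABRG1, GABRA2 and GABRB1 had ExN log2 fold changes of 0.85 and 0.76 ± 0.16 and GABRA4 had 0.29 ± 0.17. GABRG1, which did not meet the 10% condition in ExN, had 1.18 ± 0.27 (adjusted p = 0.0249, edgeR). In the pair GABRR1 and GABRR2 the values were -1.53 and 0.18 ± 0.29.

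Shares of the UMIs of one subunit in its group compare transcripts within a family, and the subunit make-up of the receptors was not measured. They are UMI shares with exact (Clopper-Pearson) 95% binomial intervals that cover counting error only, and 3 libraries against 1 allow no p below 0.25 in a one-sided exact permutation test, so none was tested. GRIA2 took 62.2%, 58.2% and 61.0% of the AMPA UMIs in injured ExN and 57.3% (56.8% to 57.9%) in control ExN. In InN it took 29.3%, 27.3% and 28.3% against 25.7% (24.8% to 26.7%). The share of GRIA2 thus lay above the control in every injured library of both neuron types. In OPC the order was the other way, with 37.1%, 42.3% and 35.7% in injured libraries and 48.6% (44.3% to 52.8%) in the control. The gap was smaller in OPC nuclei of at most 2500 genes, at 46.4%, 47.9% and 42.9% against 48.6%. With thinning the OPC shares were 38.5%, 45.1% and 39.9% against 53.0%.

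Among NMDA subunits GRIN2B took 38.5%, 39.2% and 36.5% of the UMIs of GRIN2A and GRIN2B in injured ExN and 40.9% (40.2% to 41.6%) in control ExN. In InN the shares were 58.8%, 53.8% and 55.0% against 55.2%. GRIN3A took 15.2%, 11.0% and 14.2% of all NMDA UMIs in injured InN and 8.72% (7.96% to 9.53%) in control InN, and under 1% in each ExN library. Each injured InN library was above the control for GRIN3A. GABRG1 took 60.7%, 54.2% and 49.8% of the gamma subunit UMIs in injured Astro and 48.5% (41.2% to 55.7%) in control Astro, and 0.741% to 1.55% in ExN over the 4 libraries. With thinning the Astro shares were 70.5%, 57.8% and 51.3% against 58.2%, on both sides of the control. In Astro nuclei of at most 2500 genes they were 71.25%, 58.9% and 58.7% against 56.4%.

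**Figure D4:**
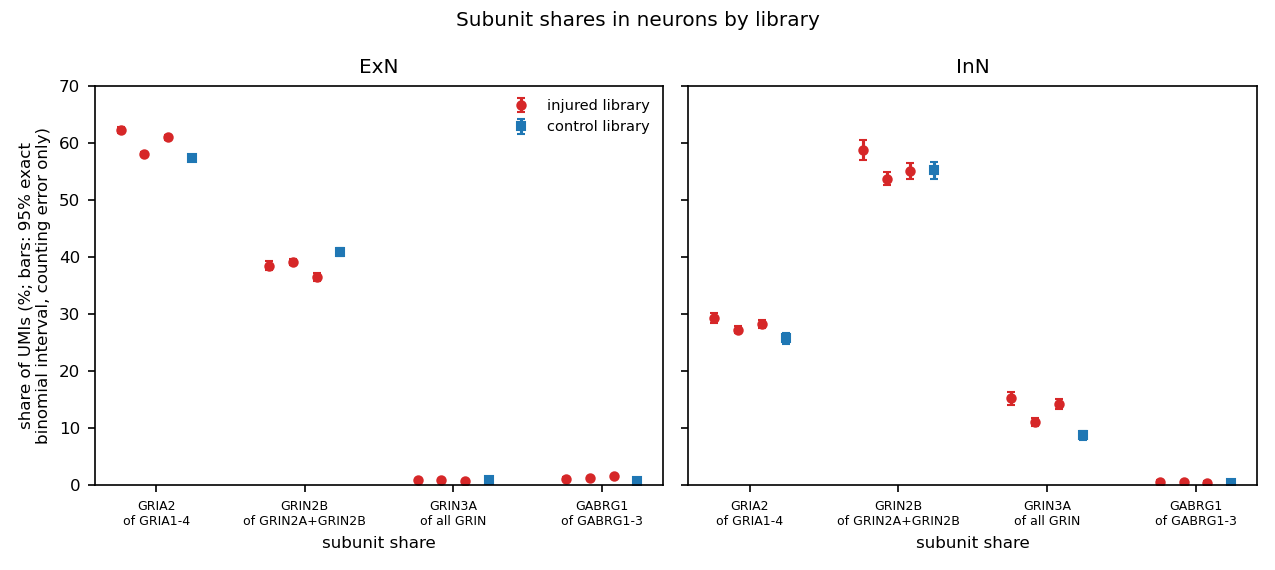
Share of UMIs (%) of 1 subunit within its group in ExN (left) and InN (right) for each library, red for injured and blue for control, with exact 95% binomial intervals that cover counting error only. The GRIA2 share of ExN is 58.2% to 62.2% in injured libraries and 57.3% in the control, and the GRIN3A share of InN is 11.0% to 15.2% against 8.72%.

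In Astro a single receptor gene, GRIK4, was called, and it was lower. GRIK4 encodes a high-affinity kainate subunit. It stood at 47.7, 48.9 and 39.1 CPM in injured Astro and 170 CPM in control Astro, a log2 fold change of -1.80 ± 0.21 (SE; adjusted p = 0.00417, edgeR). Of the 42 genes 36 were tested and 23 met the 10% condition, 14 of them in injured nuclei only. Of all genes that met it 0.756% were called lower and 2.25% higher. The median log2 fold change was -0.34 over the 36 genes tested and 0.05 over all 12445 genes tested. GRIK4 was not called in other glia, where its log2 fold changes were -1.12 ± 0.21 (OPC), -0.96 ± 0.49 (Oligo) and -1.89 ± 0.49 (Micro). In each of these types every injured library lay below the control, and in Micro GRIK4 did not meet the 10% condition.

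The next values in Astro belonged to NMDA subunits. GRIN2B stood at 32.2, 40.3 and 31.8 CPM against 102 CPM (log2 fold change -1.43 ± 0.24, adjusted p = 0.0120, edgeR). GRIN2A stood at 46.7, 40.7 and 36.8 CPM against 101 CPM (log2 fold change -1.18 ± 0.23, adjusted p = 0.0184, edgeR). Both lay below the control in every injured library, as many of the receptor genes tested in Astro did, and did not pass. How common this was over all genes in Astro is not given here. With nuclei thinned to 1000 UMIs the value of GRIN2B was -0.88 ± 0.39 (adjusted p = 0.191, edgeR). The subunits that were highest in Astro had values nearer to 0: GABRB1 had 0.08 ± 0.26, GABRG1 0.03 ± 0.29 and GABRA2 -0.30 ± 0.19. GRM3, the metabotropic receptor typical of astrocytes, stood at 748, 693 and 1083 CPM against 763 CPM (log2 fold change 0.26 ± 0.28), with injured libraries on both sides of the control.

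Markers of ExN were also lower in injured Astro. The 5 ExN markers other than GRIN2A summed to 1025, 1015 and 940 CPM in injured Astro and 1993 CPM in control Astro, and all 5 of 5 were lower in each injured library, with log2 fold changes of -1.43 to -0.34. None of these ExN markers was at 0 in any library. The 5 InN markers went the other way as a sum, with 24.3, 36.6 and 35.2 CPM in injured and 17.3 CPM in control Astro. Of these InN markers 3 were higher and 1 lower in all 3 injured libraries, and SST and VIP were at 0 in a library. In Oligo the sum of these ExN markers was 710 to 948 CPM in injured libraries and 1636 CPM in the control, and in Micro 1119 to 1189 against 1559 CPM. OPC had 800 to 1009 CPM against 754 CPM. The 6 Astro markers themselves summed to 7652, 8765 and 9194 CPM in injured Astro and 14713 CPM in the control, while 4 of the 6 were higher and 2 lower in all 3 injured libraries (median log2 fold change 0.68), with GFAP and AQP4 called higher. The part of neuronal RNA in the Astro values was not tested. The GRIK4 call was lost without injured replicate 1 and with nuclei of at most 2500 genes, where its log2 fold changes were -1.82 and -1.62, and without replicate 2 there were 4 receptor genes called. The calls over all genes in Astro went from 187 to 82 both without replicate 1 and in nuclei of at most 2500 genes, and to 716 without replicate 2.

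The effect in Astro was compared with that in ExN in the same way as for InN, a comparison added after the data were seen. GRIK4 and GRIN2B differed, each with a lower log2 fold change in Astro, and 0.497% of all 14899 genes were called. The difference was -2.01 ± 0.28 for GRIK4 (adjusted p = 0.00925, edgeR), whose ExN levels of 328, 276 and 389 CPM lay around the control's 320 CPM. For GRIN2B it was -1.65 ± 0.23 (adjusted p = 0.00852, edgeR). The same difference from ExN for GRIK4 was -1.22 ± 0.25 in OPC and -1.19 ± 0.39 in Oligo, and neither was called. Of the 39 genes tested, 24 had an unadjusted p below 0.05, 22 of them lower in Astro, with 16.6% of all genes below 0.05. The 2 calls were lost with library size scaling, with thinning and without injured replicate 1, where the calls over all genes went from 74 to 6, 60 and 2. Without replicates 2 and 3 there were 9 and 8 receptor genes called, with 425 and 310 over all genes.

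In OPC, the precursors that receive synapses from neurons, no receptor gene was called. Of 32 tested genes 23 met the 10% condition, with 0.104% of all such genes called higher and 0.0148% lower (edgeR); DESeq2 also called 0 of the receptor genes, beside 67 of all genes. An unadjusted p below 0.05 was found for 8 of the 32 and for 19.9% of all genes tested. GRIA1 stood at 656, 501 and 590 CPM in injured OPC and 268 CPM in control OPC (log2 fold change 1.25 ± 0.25, adjusted p = 0.0614, edgeR). GRIK4 stood at 233, 267 and 293 CPM against 631 CPM (log2 fold change -1.12 ± 0.21, adjusted p = 0.0563, edgeR), and GRIK1 at 198, 258 and 237 CPM against 519 CPM (log2 fold change -1.03 ± 0.23, adjusted p = 0.0772, edgeR). In each case the injured libraries lay on one side of the control, which held 171 OPC nuclei and 50 UMIs of GRIA1. Lying on one side in this way was common among the receptor genes tested in OPC. How common it was over all genes in OPC is not given here. All 3 OPC markers were lower in every injured library (summed, 3398 to 3674 against 4633 CPM), and 4 of 6 Astro and 3 of 4 Micro markers were higher in all 3, and their part in these values was not tested. Without injured replicate 2 there were 6 calls, and without replicate 3 there was 1, GRIK4, while the calls over all genes went from 8 to 820 and 293. Compared with ExN, 0 of 39 genes were called, beside 0.0136% of all genes. An unadjusted p below 0.05 was found for 13 of the 39, all lower in OPC, beside 11.6% of all genes. Without replicate 2 there were 4 calls, and those over all genes went from 2 to 295.

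In Oligo no receptor gene was called either (edgeR), with 1.67% of all genes that met the 10% condition called higher and 0.418% lower; DESeq2 called 0 receptor genes, beside 204 of all genes. An unadjusted p below 0.05 was found for 9 of 34 tested genes and for 30.8% of all genes tested. GRM3 stood at 800.0, 916 and 799 CPM against 579 CPM (log2 fold change 0.64 ± 0.16, adjusted p = 0.0524, edgeR). GRIK2, a kainate subunit, stood at 937, 967 and 871 CPM against 1169 CPM (log2 fold change -0.24 ± 0.14). Against ExN, 0 of 40 genes were called, beside 0.0679% of all genes. An unadjusted p below 0.05 was found for 18 of the 40, 15 of them lower in Oligo, beside 12.1% of all genes.

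In Micro no gene of any kind was called (edgeR), so that the percentage called was 0 in both directions while 2857 of 13470 genes had an unadjusted p below 0.05, and 5 of 34 receptor genes tested had an unadjusted p below 0.05. DESeq2 called 318 of the 13470 genes, 1 receptor gene among them, GRM3. Its level was 20.1, 35.9 and 36.5 CPM in injured Micro and 297 CPM in the control (log2 fold change -3.02 ± 0.50, adjusted p = 0.0517, edgeR), on a scale where the median of all genes was 0.42. The control had 129 Micro nuclei and 37 GRM3 UMIs. GRM3 is abundant in Astro and Oligo, and in Micro the 6 Astro markers summed to 144 to 251 CPM in injured libraries and 193 CPM in the control, with GFAP and AQP4 at 0 in a library, and the 5 Oligo markers to 218 to 272 and 289 CPM. Their part in the GRM3 value was not tested.

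In Endo the receptor genes were not tested, and the families did not all lie on the same side of the control. The AMPA genes summed to 949.98, 995 and 777.5 CPM in injured Endo and 142 CPM in the control. The control held 181 Endo nuclei with 29 AMPA UMIs, and the injured libraries 2311 to 4171 AMPA UMIs in Endo. GABBR1 lay the other way, at 108, 119 and 140 CPM against 211 CPM. The 3 Endo markers summed to 3404 to 4096 CPM in injured Endo and 848 CPM in control Endo, and the 6 Astro markers to 356 to 529 CPM against 1171 CPM, 3 of them higher and 3 lower in all 3 injured libraries. The 5 ExN markers summed to 2473, 2258 and 1891 CPM there against 1166 CPM, a level above that in any of the other non-neuronal types of injured animals. The part of RNA from other cell types in these values was not tested.

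**Figure D5:**
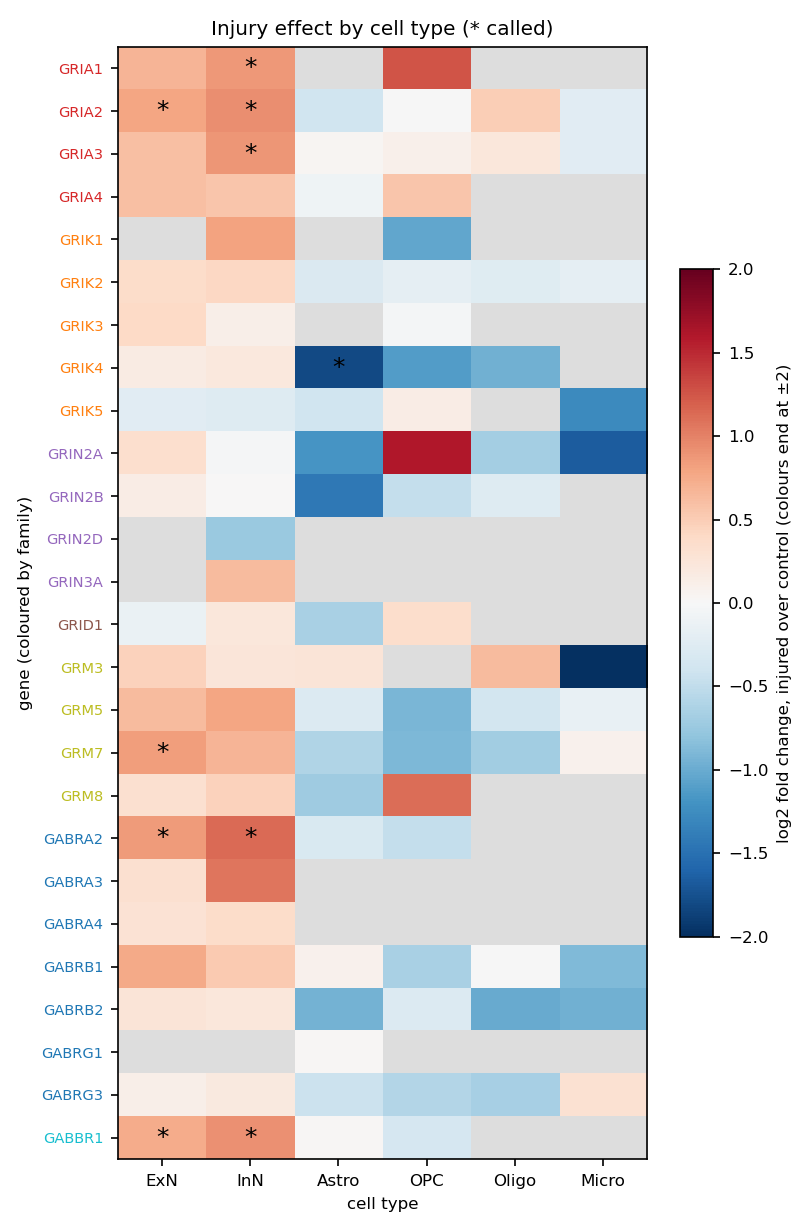
Log2 fold changes (injured over control; colours end at ±2) of the plotted receptor genes, those with a UMI in at least 10% of nuclei of either cohort, by cell type; grey cells did not meet this condition and asterisks mark calls. Red prevails in ExN and InN and blue in Astro, where GRIK4 (-1.80) is called; GRM3 in Micro lies at -3.02, past the end of the colours.

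Genes that work with the receptors were counted from lists of auxiliary subunits, scaffolds, transporters and enzymes. Of all genes that met the 10% condition, 5.27% were called higher and 2.53% lower in ExN and 3.99% and 2.21% in InN, and the counts of these short lists are given as a description. Of 19 AMPA auxiliary genes tested in ExN, 2 were called, both higher: OLFM1 (323, 303 and 419 CPM against 98.1 CPM, log2 fold change 1.94 ± 0.22) and PRRT1 (36.4, 33.5 and 34.8 CPM against 16.4 CPM, log2 fold change 1.20 ± 0.15). PRRT1 met the 10% condition in injured nuclei only. OLFM1, a secreted protein found in AMPA receptor complexes, was also the 1 gene of 18 called in InN (log2 fold change 2.07 ± 0.21). CACNG8, a transmembrane AMPA auxiliary subunit, had the lowest value of that list in ExN (-0.42) and OLFM2 in InN (-0.51). The 2 kainate auxiliary genes, NETO1 and NETO2, did not pass in either neuron type, with values of 0.40 to 1.02.

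On the inhibitory side NLGN2, the neuroligin of inhibitory synapses, was called higher in ExN (41.9, 38.3 and 42.1 CPM against 22.6 CPM, log2 fold change 0.97 ± 0.14) and in InN (34.4, 34.98 and 37.1 CPM against 14.6 CPM, log2 fold change 1.39 ± 0.24). It was 1 of 4 inhibitory scaffold genes tested. In ExN and in InN, NLGN2 met the condition on the percentage of nuclei with a UMI in injured nuclei only. Of 9 GABA receptor auxiliary genes, 0 were called in ExN and 1 in InN, the GABA-B auxiliary subunit KCTD8 (475.5, 456 and 526 CPM against 291 CPM, log2 fold change 0.84 ± 0.15). TRAK1 had the lowest value of that list in both (-0.41 and -0.36). SLC12A5, the neuronal chloride exporter, stood at 215, 200 and 202 CPM against 295 CPM in ExN and did not pass (log2 fold change -0.41 ± 0.10, adjusted p = 0.0343, edgeR), and 0 of 3 chloride transport genes were called in either neuron type.

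The excitatory scaffold gave no call in neurons: none of its 17 genes was called in ExN or InN (edgeR), the median log2 fold change of the 14 that met the 10% condition was 0.01 in ExN and 0.19 in InN, and the highest values were those of CAMK2B in ExN (0.55) and CAMK2A in InN (0.54). HOMER1 had the lowest value in ExN (-0.25) and DLGAP2 in InN (-0.23). A pair of scaffold genes was called lower in Astro: SHANK2 (59.8, 47.2 and 50.1 CPM against 194 CPM) and DLGAP1 (142, 151 and 141 CPM against 431 CPM). OLFM2 of the AMPA auxiliary list was also lower in Astro (91.6, 101 and 92.4 CPM against 519 CPM). Of all genes that met the 10% condition in Astro 0.756% were called lower, and the sum of the 5 ExN markers was also lower in every injured Astro library, at 940 to 1025 CPM against 1993 CPM. Its part in these values was not tested.

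Of the 10 genes of glutamate synthesis and transport, GLUL, which encodes glutamine synthetase and is normally most active in astrocytes, was the single call in ExN (22.5, 19.9 and 22.2 CPM against 8.602 CPM, log2 fold change 1.43 ± 0.18) and in InN (log2 fold change 1.51 ± 0.26). In ExN GLUL met the 10% condition in injured nuclei only. Beside it, the 6 Astro markers in ExN summed to 202, 266 and 261 CPM in injured libraries and 246 CPM in the control, 4 of them higher and 1 lower in all 3 injured libraries. In InN they summed to 126, 138 and 167 CPM against 124 CPM, 4 of them higher and 0 lower in all 3, and their part in the GLUL values was not tested. Of the GABA synthesis and transport genes, SLC32A1, the vesicular GABA transporter, rose in InN (78.5, 88.6 and 82.4 CPM against 25.3 CPM, log2 fold change 1.82 ± 0.20). It met the 10% condition there in injured nuclei only, and 0 of the 8 genes were called in ExN. ALDH5A1, which breaks down GABA, had the lowest value in both (-0.41 and -0.66) and did not pass. Of the immediate early genes 1 met the 10% condition in ExN and 0 in InN, and of the partners of the delta receptors 1 in each, so that these lists allowed hardly any call and gave 0.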

How the data were processed

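Single-nuclei RNA-seq libraries (10x 3' v3) of 3 injured and 1 pooled control sample were counted by the authors with Cell Ranger 3.1.0 on calJac3 with Ensembl annotation, and doublets were removed with Scrublet (injured) or by genes per nucleus (control). The deposited counts are raw UMIs per gene and nucleus, with tables of library and cell type. For genes in both tables, UMIs were added up over nuclei, by library and annotated type, and injured and control sums were compared by the quasi-likelihood F test of edgeR 4.0.16 (R 4.3.3), with filterByExpr, TMM scaling and Benjamini-Hochberg adjustment over all genes tested. The steps were tested on simulated data. Replicates 1 to 3 are in accession order. Each p-value rests on the spread between the 3 injured libraries. Members and gene lists were chosen with earlier results of these data known. Values were given in every library for genes called in any cell type and, in ExN and InN, for the 5 largest rises and falls; genes of the lists were named where called and for the extremes of a list, and other members were named as examples after their values were seen. Alternatives were DESeq2 1.42.0, RLE factors, library size alone, no low-count filter, thinning to 1000 UMIs (seed 1), nuclei of at most 2500 genes, an adjusted p limit of 0.05 and leaving out each injured library. Gene neighbors came from the RefSeq table of assembly calJac240_pri, which differs from calJac3, so no coordinates or sequences are given. Results for 5 of the receptor genes are not reported here by name, and counts and sums over the genes include them.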

Additional observations from a re-analysis of the deposited data

Results flagged for a closer look

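GRIK4 and GRIN2B were flagged because their injury effects differed between Astro and ExN by an interaction test, with differences in log2 fold change of -2.01 and -1.65. The part of neuronal RNA in the control Astro nuclei, whose ExN marker sum was 1993 CPM against 940 to 1025 CPM in injured Astro, was not tested. GABRE, a GABA-A subunit gene, was listed in the injured table but not in the control table. It had 16 UMIs in all (7, 2 and 7 in injured replicates 1, 2 and 3). These libraries held 35737777, 48722394 and 42956736 UMIs and the control 22832703. The 16 UMIs thus cannot be set directly against the 3 counts that a control count of 0 would allow. The level of GABRE in the control was not analysed here. Groups of 3 libraries and 1 library were too small for a test of outlying samples.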

How the results depend on the processing

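The number of receptor genes called in ExN, 6 in the main test, was 10 with DESeq2, 2 with thinning, 0 in nuclei of at most 2500 genes, 11 at an adjusted p limit of 0.05, 0 in ExN with FOXP2 and no CUX2 UMI, and 0 to 8 when each injured library was left out in turn. In InN the 6 became 12 with DESeq2, 10 without the low-count filter, 17 at the limit of 0.05, 2 in InN with LHX6 and no ADARB2 UMI, and 1 to 18 with a library left out. In Astro the single call became 2 with library size scaling and without the filter, 0 in nuclei of at most 2500 genes, 4 at 0.05, and 0 to 4 with a library left out. The 0 of OPC became 0 to 6 with a library left out, that of Oligo 1 at 0.05 and that of Micro 1 with DESeq2. For the differences between cell types, InN against ExN gave 0 to 2 with a library left out (0 without the library block), OPC against ExN 0 to 4, Oligo against ExN 2 at 0.05, and Astro against ExN, 2 in the main test, 0 with library size scaling, 0 with thinning, 8 at 0.05 and 0 to 9 with a library left out. Over all genes the calls in ExN went from 582 to 1193 with DESeq2 and 1834 at 0.05, in InN from 443 to 486 with DESeq2, 587 without the filter and 1433 at 0.05, and in Astro from 187 to 239 with library size scaling, 338 without the filter and 891 at 0.05. In Oligo they went from 90 to 502 at 0.05, and the differences from ExN at 0.05 from 74 to 444 in Astro and from 10 to 120 in Oligo. The causes were not tested. The log2 fold change of GRIN2A in InN changed sign to 0.15 with thinning and ranged from -0.15 to 0.064 with a library left out.

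In ExN and InN, injured minus control differences of subunit shares moved beyond 1 SD of the injured libraries as follows, in percentage points. The OPC and Astro shares under these settings are given above beside their main values. In nuclei of at most 2500 genes they were 4.06 for GRIA2 in InN, -5.72 and 3.28 for GRIN2B in ExN and InN, 7.24 for GRIN3A in InN and 0.0257 for GABRG1 in InN. With thinning they were -2.39 for GRIN2B in InN and 0.0779 for GABRG1 in InN. The splits of neurons by marker UMIs and the comparisons of glia with ExN were chosen after seeing the data. No paired analysis was possible because the control had 1 library and replicate numbers followed the accession order. The planned correction for gene span was not run, since no gene spans on calJac3 were used here. The single control library and its lower depth limit all comparisons.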
